A study of Mus musculus with 12 samples.

Results

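Immune checkpoint genes encode the inhibitory receptors of T cells and other lymphocytes and the ligands and enzymes that act with them. The 10 genes described here were found by symbol among the 25116 rows of the deposited mouse table. They are the ligand genes Cd274 and Pdcd1lg2 and their receptor gene Pdcd1, the CTLA-4 gene Ctla4 with its ligand genes Cd80 and Cd86, the receptor genes Lag3, Havcr2 and Tigit, and the ectonucleotidase gene Entpd1. Of these, 9 passed the filter on low counts and were tested among 15199 genes, and Ctla4 did not.

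RNA was sequenced from 12 whole tumours, which E0771 cells, a triple-negative mouse breast cancer line, had formed in the mammary fat pad by day 22. Every host mouse was C57BL/6J and carried Tie2CreER, a tamoxifen-activated Cre recombinase driven from the endothelial Tie2 promoter, together with ERKi, a knocked-in endorepellin gene that the recombinase switches on. This protein is the C-terminal fragment of the basement membrane proteoglycan perlecan. The control group (5 tumours) received a control injection and the induced group (7 tumours) received tamoxifen, both before the tumour cells. Both groups carry the same alleles, so exposure to tamoxifen and expression of endorepellin cannot be told apart in this design. The Tie2 promoter is also known to be active in some blood-forming and myeloid cells, and all tumours come from 1 cell line. The comparison asks how endothelial endorepellin affects the tumour, here read through the checkpoint genes.

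In textbook terms, PD-1 and CTLA-4 restrain T cells after activation. PD-1 is engaged by PD-L1, which tumour and myeloid cells make in response to interferon gamma, and by PD-L2, which is found mainly on myeloid cells. CTLA-4 competes with the costimulatory receptor CD28 for CD80 and CD86 on antigen-presenting cells. LAG-3, TIM-3 and TIGIT are further inhibitory receptors, and CD39 is an enzyme that breaks down extracellular ATP on the way to immunosuppressive adenosine.

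Libraries held 18993192 to 28372821 counts. Control 1, control 2, induced 3 and induced 4 stood apart from the other 8 tumours on the first principal component, with scores of -42 and below against 4.5 and above, and this component held 45.6% of the variance. Control 1 had the highest sums of leukocyte and of fibroblast markers. The summed level of 5 leukocyte markers was 658 CPM there (counts divided by library size with TMM factors) against 96.96 to 302 CPM in the other 11 tumours. The 8 T cell markers summed to 42.3 CPM in control 1, 1.51 to 8.26 CPM in the other controls and 1.27 to 13.5 CPM in the induced tumours. Reads of Cd8a, which marks cytotoxic T cells, were at 0 in 6 libraries. The 11 macrophage and monocyte markers summed to 1657 CPM in control 1, 269 to 435 CPM in the other controls and 180 to 892 CPM in the induced tumours. The 7 fibroblast markers summed to 3258 CPM in control 1, 3.5 times the median of the other 11 tumours, where the leukocyte markers stood at 3.39 times. Neutrophil markers were highest in control 2 (122 CPM) and natural killer cell markers in induced 4 (34.9 CPM). The 6 epithelial markers reached at most 7.14 CPM in any tumour, and 3 of them had no reads in at least 1 library. In bulk RNA, fewer cells of a type and less RNA per cell cannot be told apart.

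No checkpoint gene differed between induced and control tumours beyond the spread of the tumours. Control 1 held the highest level of 9 of the 10 genes, and for 6 of the 9 tested genes the sign of the fold change turned when control 1 was left out. The edgeR quasi-likelihood test called 0 of the 9 at an adjusted p under 0.05, where 0.0% of all genes tested were called, and DESeq2 and limma-voom also called 0 genes. At an unadjusted p under 0.05 there was 1 of 9, Pdcd1, against 2.13% of all genes. No gene had groups that did not overlap, as 0.0592% of all genes did. Control 1 was the highest tumour for 16.3% of all genes tested. It lay far from the other controls for 7 of the 10 genes (gap over range past Dixon's critical value), and 10.4% of all genes tested had such a tumour in the control group. The part of leukocyte or fibroblast content in these values was not tested.

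**Figure D1:**
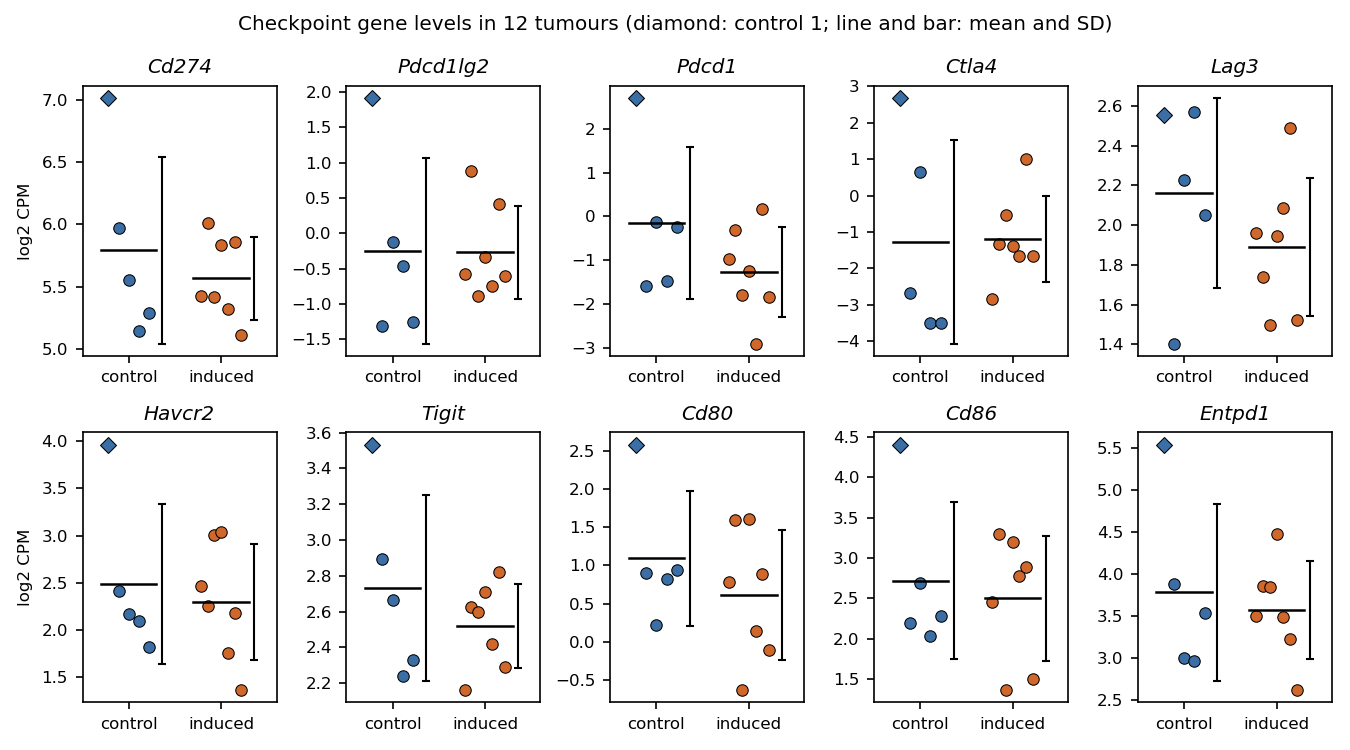
Levels of the 10 checkpoint genes as log2 CPM (vertical axes, prior count of 2, a separate scale for each gene), with 1 point per tumour for 5 control and 7 induced tumours. Lines are group means, bars are SD and the diamond is control 1, which is the highest point for every gene other than Lag3.

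Cd274, encoding PD-L1, was the most abundant of the genes. Its level was 129 CPM in control 1, 62.7 CPM in control 2, 46.8 CPM in control 3, 35.3 CPM in control 4 and 38.9 CPM in control 5. Induced tumours ranged from 34.4 CPM in induced 7 through a median of 42.8 CPM to 64.6 CPM in induced 2. Control 1 stood at 3.01 times the median of the other 11 tumours, and the remaining controls overlapped the induced tumours. The group levels were 62.6 ± 38.7 CPM in control (SD, n = 5) and 48.4 ± 11.3 CPM in induced tumours (SD, n = 7). The log2 fold change of Cd274 was -0.37 (SE 0.29, unadjusted p = 0.225, adjusted p = 0.99989, edgeR), and it was 0.07 (SE 0.20) without control 1. Cd274 (ENSMUSG00000016496) occupies chromosome 19 bases 29367455 to 29388095 of GRCm38, plus strand. Of its 3622 exonic bases, 14.1% are also annotated to an antisense gene on the opposite strand, and the use of strand in counting was not given in the sources used here.

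Pdcd1lg2, encoding the second PD-1 ligand PD-L2, was a weakly counted gene next to Cd274 on chromosome 19 (29410919 to 29471161, plus strand). It had 106 reads in control 1, at 3.68 CPM, and 7 to 34 reads elsewhere. The other controls ranged from 0.32 CPM in control 2 to 0.83 CPM in control 3, and the induced tumours from 0.46 CPM in induced 3 through a median of 0.58 CPM to 1.75 CPM in induced 2. Induced 2 and induced 6 were above control 2 to control 5, and the other induced tumours lay among them. Pdcd1lg2 had a log2 fold change of -0.50 (SE 0.60) with all tumours and 0.64 (SE 0.46, unadjusted p = 0.188, edgeR) without control 1.

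Pdcd1, encoding the receptor PD-1, was near the limit of detection outside control 1. Control 1 had 184 reads and the other 11 tumours 1 to 20 reads. In CPM, the controls were at 6.38, 0.25, 0.83, 0.27 and 0.75 from control 1 to control 5. Induced tumours ranged from 0.05 CPM in induced 5 through a median of 0.33 CPM to 1.03 CPM in induced 6. Apart from control 1, the groups overlapped. The level in control 1 was 19.2 times the median of the other tumours. Pdcd1 had a log2 fold change of -2.03 (SE 0.82, unadjusted p = 0.0281, adjusted p = 0.99989, edgeR) with all tumours, and all 7 induced tumours were below the control mean. Without control 1 it was -0.33 (SE 0.63, unadjusted p = 0.613), and the controls that remained were at 0.53 ± 0.31 CPM (SD, n = 4) against 0.42 ± 0.35 CPM in induced tumours (SD, n = 7). Pdcd1 (ENSMUSG00000026285) occupies chromosome 1 bases 94038305 to 94052553, minus strand.

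Ctla4, encoding the receptor CTLA-4, showed the widest spread between tumours. Control 1 had 181 reads (6.27 CPM) and control 3 had 30 reads (1.47 CPM). Control 2 had 2 reads, and control 4 and control 5 had none, which allows levels up to 0.136 and 0.141 CPM there (3 counts, counting error only). Among induced tumours the lowest was 0.05 CPM in induced 1, the median 0.30 CPM and the highest 1.91 CPM in induced 6, which had 37 reads. Ctla4 was highest in control 1, control 3 and induced 6, and these tumours also had the 3 highest sums of T cell markers. With no filter on low counts, the log2 fold change of Ctla4 was -1.61 (SE 1.19, unadjusted p = 0.200, edgeR). In 4 fits that left out libraries Ctla4 passed the filter on low counts. Its log2 fold change was then -1.94 without control 2, -1.94 without control 4 and -1.92 without control 5. These controls had 2 reads or none, so leaving 1 of them out raises the control mean. The value was 0.08 (SE 1.16) without control 1 and control 2, and Ctla4 did not pass the filter without control 1 alone. Each of these values differs from -1.61 in both the filter and the libraries. Ctla4 (ENSMUSG00000026011) spans 60887000 to 60915832 on the plus strand of chromosome 1.

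Cd80 and Cd86, the shared ligands of CTLA-4 and CD28, were counted in every tumour. Cd80 was at 5.89, 1.79, 1.07, 1.68 and 1.84 CPM from control 1 to control 5, and at 0.56 to 2.95 CPM in induced tumours with a median of 1.64 CPM. Cd86 was at 21.1, 4.49, 6.35, 4.00 and 4.76 CPM in the controls, and at 2.48 to 9.74 CPM in induced tumours with a median of 6.79 CPM. For both, the induced tumours spread on both sides of control 2 to control 5, with induced 2 and induced 4 at the upper end and induced 3 the lowest. Fitted log2 fold changes were -0.56 (SE 0.49) for Cd80 and -0.39 (SE 0.46) for Cd86. Without control 1 these were 0.06 (SE 0.43) and 0.34 (SE 0.36, unadjusted p = 0.360, edgeR). Both are chromosome 16 genes, Cd80 at 38455561 to 38496335 (plus strand) and Cd86 at 36603869 to 36666081 (minus strand).

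Lag3, whose product LAG-3 binds MHC class II, was the member for which control 1 was not the highest tumour. The controls were at 5.79, 2.56, 4.59, 5.86 and 4.05 CPM from control 1 to control 5. Induced tumours ranged from 2.73 CPM in induced 3 through a median of 3.77 CPM to 5.54 CPM in induced 6. All 7 induced tumours lay within the range of control 2 to control 5. Lag3 had a log2 fold change of -0.30 (SE 0.24, unadjusted p = 0.241, edgeR) with all tumours and -0.20 (SE 0.25) without control 1. It was below 0 in all 23 alternative fits, with unadjusted p from 0.0594 to 0.450. Lag3 (ENSMUSG00000030124) occupies chromosome 6 bases 124904361 to 124911705, minus strand, and no other annotated gene shares its exonic bases.

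Tigit, encoding a receptor for the poliovirus receptor PVR and for nectins, had the narrowest range of the 10 genes once control 1 was set aside. The controls were at 11.5, 7.36, 6.25, 4.63 and 4.95 CPM, and induced tumours ranged from 4.38 CPM in induced 1 through a median of 5.97 CPM to 6.98 CPM in induced 6. Outside control 1 the highest tumour exceeded the lowest 1.68-fold, where for Cd274 it did so 1.88-fold. For Tigit the log2 fold change was -0.28 (SE 0.23, unadjusted p = 0.231, edgeR) with all tumours and -0.03 (SE 0.19) without control 1. Tigit (ENSMUSG00000071552) occupies chromosome 16 bases 43648867 to 43664146, minus strand, and has 919 exonic bases, the fewest of the genes.

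Havcr2, encoding TIM-3, which is carried by exhausted T cells and by macrophages and dendritic cells, was at 15.5, 5.22, 4.40, 4.18 and 3.44 CPM from control 1 to control 5. Induced tumours ranged from 2.48 CPM in induced 7 through a median of 4.69 CPM to 8.12 CPM in induced 4, with induced 3 at 7.94 CPM. Control 1, induced 3 and induced 4 were above all 8 tumours that did not stand apart on the first principal component. The log2 fold change of Havcr2 (chromosome 11, 46454935 to 46481255, plus strand) was -0.34 (SE 0.40) with all tumours, 0.26 (SE 0.31) without control 1, and 0.0089 (SE 0.26) among those 8 tumours alone.

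Entpd1, encoding CD39, was the second most abundant of the genes in mean CPM. The controls were at 46.4, 14.6, 7.87, 7.72 and 11.5 CPM, and induced tumours ranged from 6.03 CPM in induced 7 through a median of 11.2 CPM to 22.1 CPM in induced 4. Control 1, control 2 and induced 4 were above the 8 tumours that did not stand apart, whose highest value was 14.4 CPM. The log2 fold change of Entpd1 (chromosome 19, 40612366 to 40741602, plus strand) was -0.48 (SE 0.44, unadjusted p = 0.288, edgeR) with all tumours and 0.27 (SE 0.31) without control 1.

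Over the 9 tested genes the log2 fold change was below 0 for 9, with a median of -0.39, where 50.2% of all genes tested were below 0 and the median was -0.000828. Without control 1, 3 were below 0 and 6 above, with a median of 0.07. Without control 1, control 2, induced 3 and induced 4, 2 were below 0 (Pdcd1 and Lag3) and 7 above, with a median of 0.07. In the authors' deposited table the log2 fold changes of the 10 genes ran from -2.03 for Pdcd1 to -0.29 for Tigit, and each had an adjusted p of 0.994.

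**Figure D2:**
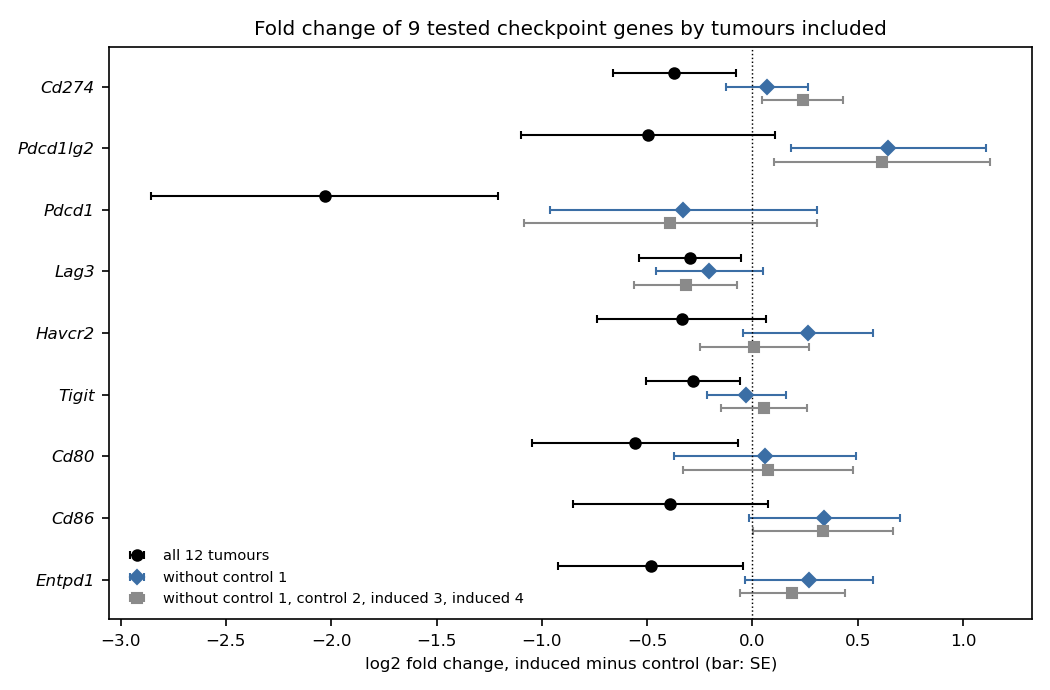
Log2 fold change of the 9 tested genes, induced minus control (horizontal axis), with SE as bars, from fits with all 12 tumours (circles), without control 1 (diamonds) and without the 4 tumours that stood apart (squares). Circles lie below 0 for all 9 genes, and diamonds lie above 0 for 6 of them.

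Levels of different genes were compared per kilobase of exon (RPKM, from the same scaled counts and GENCODE lengths). The median over 12 tumours was 12.4 RPKM for Cd274, 6.56 RPKM for Tigit and 2.03 RPKM for Entpd1. Cd274 was above Tigit, and Tigit above Entpd1, in 12 of 12 tumours. Lag3 (1.86 RPKM), Havcr2 (1.68 RPKM) and Cd86 (1.603 RPKM) followed. Their order was not fixed, since Lag3 exceeded Havcr2 in 6 of 12 tumours and Havcr2 exceeded Cd86 in 6 of 12. Cd80 (0.46 RPKM), Pdcd1lg2 (0.31 RPKM), Pdcd1 (0.20 RPKM) and Ctla4 (0.11 RPKM) were the lowest, and Cd86 was above Cd80 in all 12. Per unit length, Tigit therefore had the second highest median, and Pdcd1 and Ctla4 the lowest.

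The spread of 4 inhibitory receptor genes was set beside that of the T cell receptor complex. The mean log2 CPM of Cd3d, Cd3e and Cd3g, signalling subunits of that complex, spanned 5.58 units between induced 4 and control 1. Ctla4 spanned 6.18 units and Pdcd1 5.59 units, both with control 1 at the top. Lag3 spanned 1.17 units and Tigit 1.37 units over the same tumours. The low ends of Ctla4, Pdcd1 and the Cd3 genes are libraries with no reads or few, where the log2 value is largely set by the prior count of 2, so these spans are not exact. Ctla4 and Pdcd1 had 0 to 37 reads outside control 1, while Lag3 and Tigit had at least 54 and 83 reads in every tumour. In control 5, Cd8a, Cd3e and Cd3g had no reads, but Cd3d was at 0.42 CPM, Cd4 at 0.94 CPM and Foxp3 at 0.57 CPM. Ctla4 had no reads there, Pdcd1 had 16 reads (0.75 CPM), Tigit was at 4.95 CPM and Lag3 at 4.05 CPM. Low Cd3 reads thus did not go with low Pdcd1 in that tumour. In induced 4, Cd3d and Cd3g had no reads, and the mean of the Cd3 genes was the lowest of all tumours. The sum of the 8 T cell markers there, 2.25 CPM, was the median of the induced tumours, but Cd4 alone made up 1.81 CPM of it. Cd3e was at 0.04 CPM, Cd8a at 0.11 CPM and Cd8b1 at 0.18 CPM in that tumour. Ctla4 (8 reads, 0.30 CPM) and Pdcd1 (9 reads, 0.33 CPM) were at the induced medians there, with Tigit at 6.46 CPM and Lag3 at 3.77 CPM. Which cells held the Tigit and Lag3 RNA in these tumours was not tested.

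**Figure D3:**
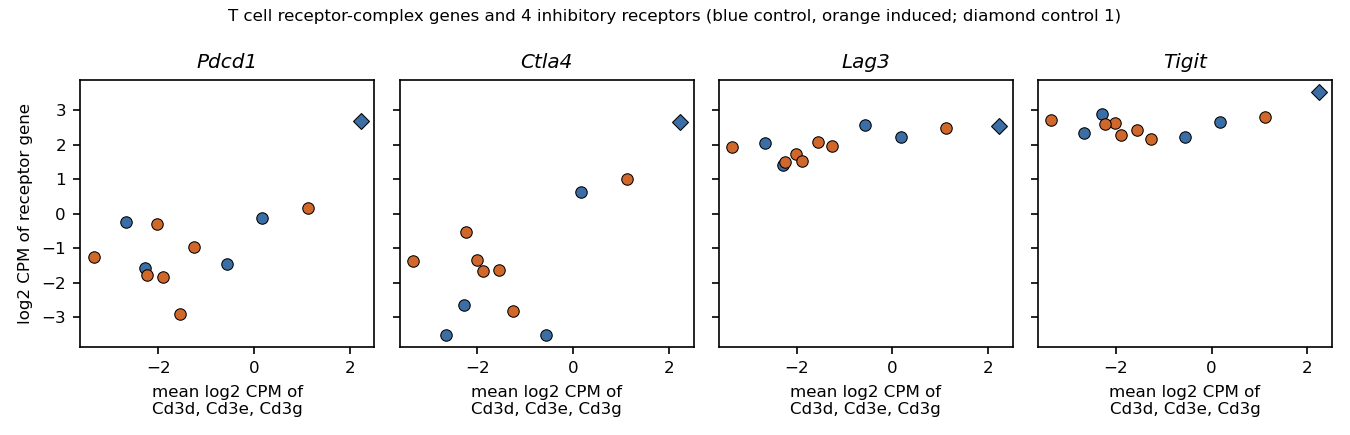
Log2 CPM of 4 inhibitory receptor genes (vertical axis, shared) against the mean log2 CPM of Cd3d, Cd3e and Cd3g (horizontal axis), with 1 point per tumour (blue control, orange induced, diamond control 1). Lag3 and Tigit span 1.17 and 1.37 units across a 5.58-unit range of the T cell genes, and Pdcd1 and Ctla4 span 5.59 and 6.18 units, with the low ends of Ctla4, Pdcd1 and the T cell genes largely set by the prior count.

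Upstream sequences of Pdcd1, Ctla4 and Tigit are shown because these are lymphocyte receptor genes with few reads (Pdcd1, Ctla4) and with more (Tigit). They come from the RefSeq promoter table (GRCm38.p6). The table held 9 windows for 8 of the 10 genes, with 2 for Entpd1, and Lag3 and Cd86 are named only. Each line gives 250 bases before the RefSeq start site on the gene's strand, and capitals mark motif matches.
Pdcd1 (chr1:94052554-94052803, minus strand): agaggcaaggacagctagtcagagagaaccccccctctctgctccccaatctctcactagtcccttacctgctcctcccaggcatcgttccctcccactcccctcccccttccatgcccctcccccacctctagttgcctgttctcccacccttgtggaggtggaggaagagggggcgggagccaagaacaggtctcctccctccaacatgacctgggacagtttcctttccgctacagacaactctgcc
Ctla4 (chr1:60908775-60909024, plus strand): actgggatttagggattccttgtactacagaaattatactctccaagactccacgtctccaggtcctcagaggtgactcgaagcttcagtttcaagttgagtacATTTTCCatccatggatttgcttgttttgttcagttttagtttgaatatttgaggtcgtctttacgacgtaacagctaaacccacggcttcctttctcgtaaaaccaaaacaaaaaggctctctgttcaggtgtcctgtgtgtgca
Tigit (chr16:43664185-43664434, minus strand): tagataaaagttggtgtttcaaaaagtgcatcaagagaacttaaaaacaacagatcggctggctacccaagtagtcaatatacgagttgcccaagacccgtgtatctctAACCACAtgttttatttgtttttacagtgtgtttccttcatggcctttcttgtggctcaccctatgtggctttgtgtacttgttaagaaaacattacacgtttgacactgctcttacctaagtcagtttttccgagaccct

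Motifs were searched on both strands of these upstream windows. Ctla4 held the NFAT core GGAAAAT on the other strand of its window (positions -146 to -140 from the start site, in capitals as ATTTTCC), which 4.16% of 32851 windows hold. Tigit held the RUNX core TGTGGTT on the other strand (positions -141 to -135, in capitals as AACCACA), which 4.4% of windows hold, and Havcr2 also held it. The AP-1 motif TGANTCA was in the windows of Havcr2 and Cd80 and in 6.75% of all windows. The interferon-regulatory-factor motif (a pair of GAAA runs with any bases NN between), the STAT motif TTCNNNGAA and the TATA motif TATAAAA were in none of the 9 windows, and in 2.98%, 7.02% and 4.98% of all windows. Of the 250 bases, 185 of the Cd274 window lie in exons of Plgrkt, and 118 of 1 Entpd1 window in exons of Tctn3. A match describes letters in a short window and is not a site shown to be bound. The lack of a match does not show that the gene lacks such a site.

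Levels were also set against marker genes of T cells or macrophages, which are among the cells known to carry them. Each value was the log2 CPM of the gene minus the mean log2 CPM of the markers. Markers of other cells, such as natural killer cells and tumour cells, were not used for these values. For none of the 11 such values did the groups differ beyond their spread (exact permutation test over 792 splits, two-sided, smallest p = 0.121, adjusted p = 0.588). Relative to Cd3d, Cd3e and Cd3g, Pdcd1 was at 0.47 ± 1.26 in control (SD, n = 5) and 0.33 ± 1.26 in induced tumours (SD, n = 7, exact permutation p = 0.823). Control 1 was at 0.46 for this value, with 4 of the other 11 tumours above it. Ctla4 relative to the same genes was at -0.66 ± 1.40 and 0.40 ± 1.2 (exact permutation p = 0.197). For Tigit and for Lag3 relative to the T cell genes, all 11 other tumours were above control 1, with differences between groups of 0.76 and 0.70 (exact permutation p = 0.396 and p = 0.398). Without control 1 these were 0.25 and 0.0897. Tigit and Lag3 spanned 1.37 and 1.17 log2 units, against 5.58 for the mean of the Cd3 genes, which was highest in control 1. Both ratios thus largely follow the Cd3 genes, whose low end is mostly set by the prior count. The difference for Ctla4 was 0.48 without control 4 and 1.82 with a prior count of 0.5, against 1.05 with a prior count of 2.

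Relative to the macrophage genes Csf1r, Adgre1 and Cd68, Entpd1 varied least, over 0.98 log2 units in 12 tumours. It was at -1.47 ± 0.11 in control (SD, n = 5) and -1.19 ± 0.34 in induced tumours (SD, n = 7), a difference of 0.28 (exact permutation p = 0.121). Without induced 4 the difference was 0.37 (exact permutation p = 0.0152), and the 16 alternatives for this value gave p from 0.0152 to 0.396. Cd274 relative to these genes was at 0.55 ± 0.49 and 0.81 ± 0.65 (exact permutation p = 0.461), and 10 of the other 11 tumours were above control 1. It was lowest in induced 4 (-0.39) and control 1 (-0.09), where the mean of the macrophage genes was highest. Cd274 itself spanned 1.9 log2 units, against 3.38 for that mean, so this ratio largely follows the macrophage genes. The differences for Cd80, Cd86, Havcr2 and Pdcd1lg2 relative to the macrophage genes were 0.0067, 0.27, 0.30 and 0.47 (exact permutation p from 0.346 to 0.982).

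**Figure D4:**
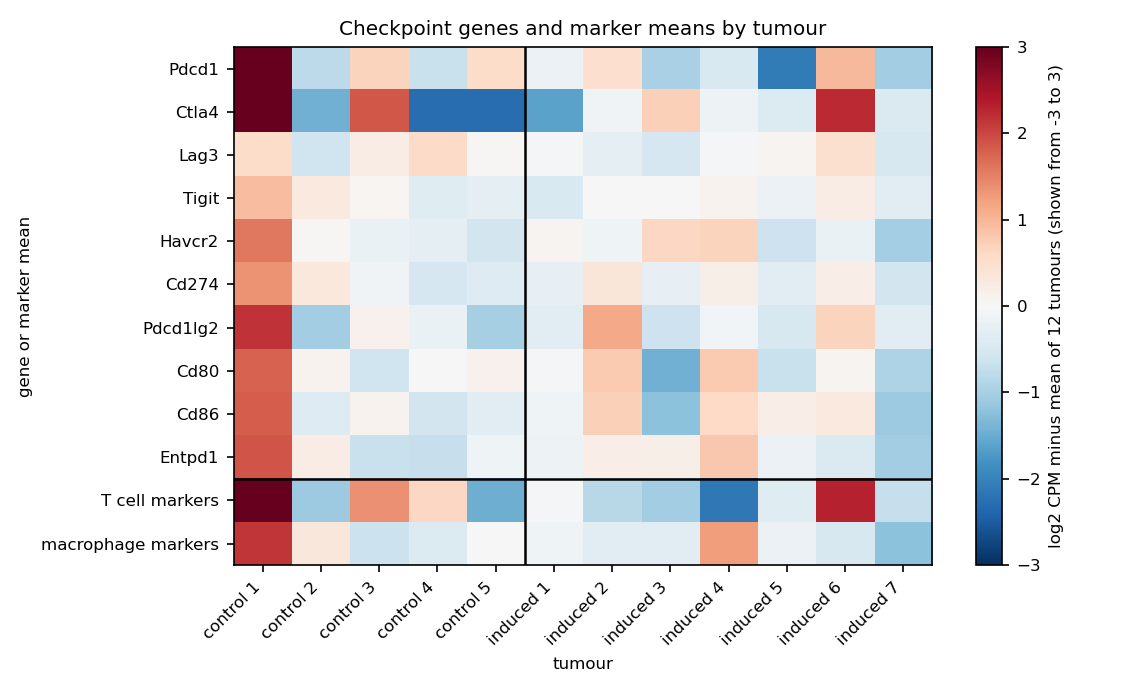
Log2 CPM minus the mean of 12 tumours (colour, shown from -3 to 3) for the 10 checkpoint genes and, below the line, the means of 3 T cell and 3 macrophage marker genes, with tumours in columns and the groups split by a vertical line. Control 1 is high in most rows, induced 6 and control 3 are high for Ctla4 and the T cell genes, and induced 4 is high for the macrophage genes and Entpd1.

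The genes with the most similar profiles were found as those with the smallest mean absolute difference in centred log2 CPM over the 12 tumours, among 15169 or 15170 named genes. For Cd274 the closest were Igtp, an interferon-induced GTPase (0.15 log2), Egr1 (0.16) and Aldh1b1 (0.16). For Tigit they were Irgm1 (0.12), also such a GTPase, Samhd1 (0.12) and Gbp9 (0.12). Among the members, the closest pair was Cd274 and Tigit (0.18). The closest to Pdcd1 were the kinase gene Zap70 (0.41), AI504432 (0.44) and the T cell receptor gene Trbc1 (0.51). Those closest to Ctla4 were the chemokine receptor gene Cxcr6 (0.68), Trbc2 (0.68) and Mcpt4 (0.785). Entpd1 was closest to Pde8a (0.11), Havcr2 to Nsd1 (0.16), Cd86 to Tent5a (0.13), Cd80 to Gca (0.19), Lag3 to 4930523C07Rik (0.14) and Pdcd1lg2 to B3gnt5 (0.26). All of these values come from the same 12 libraries, and the likeness is a description.

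Other inhibitory receptors had values below 0 in 11 of 12 tested genes, with a median log2 fold change of -0.69, and 0 passed the test. Up to 3 genes of this and each later list are named, chosen for the smallest p in these same data. Btla, an inhibitory receptor of lymphocytes, was at 1.33 ± 0.77 CPM in control (SD, n = 5) and 0.52 ± 0.21 CPM in induced tumours (SD, n = 7), a log2 fold change of -1.36 (SE 0.42, unadjusted p = 0.00669, adjusted p = 0.99989, edgeR). Siglece, a sialic acid-binding receptor of myeloid cells, was at 5.23 ± 3.83 CPM and 2.51 ± 1.16 CPM, and Pilra, an inhibitory receptor of myeloid cells, at 9.04 ± 3.96 CPM and 4.96 ± 2.52 CPM. For 11 of these 12 genes control 1 was the highest tumour. Without it, 7 of 12 were below 0 and the median was -0.14. The means of control 2 to control 5 were 1.12 CPM for Btla, 3.66 CPM for Siglece and 7.76 CPM for Pilra, each above the induced mean. The part of leukocyte content in these values was not tested.

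Inhibitory ligands other than the members were split, with 4 of 10 above 0 and 6 below, a median of -0.08 and 0 past the test. Cd200, a ligand that restrains myeloid cells, was at 5.88 ± 0.76 CPM in control (SD, n = 5) and 4.41 ± 0.88 CPM in induced tumours (SD, n = 7, unadjusted p = 0.0342, adjusted p = 0.99989, edgeR). Tnfrsf14, the partner of BTLA, was at 7.33 ± 3.35 CPM and 4.99 ± 1.69 CPM, and the TIGIT ligand gene Nectin2 at 15.8 ± 0.90 CPM and 14.3 ± 2.10 CPM. Control 1 was the highest tumour for 2 of these 10 genes. Cd200 was highest in control 2, and ranged from 5.357 to 7.217 CPM in control and from 3.175 to 5.362 CPM in induced tumours. The means of control 2 to control 5 were 5.94 CPM for Cd200, 5.90 CPM for Tnfrsf14 and 15.8 CPM for Nectin2.

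All 7 tested costimulatory receptors and all 6 costimulatory ligands were below 0, with medians of -0.77 and -0.60 and 0 past the test. Cd2, an adhesion receptor of T cells, was at 2.02 ± 3.09 CPM in control (SD, n = 5) and 0.43 ± 0.50 CPM in induced tumours (SD, n = 7). Cd27, a TNF receptor family member of lymphocytes, was at 1.33 ± 1.31 CPM and 0.49 ± 0.36 CPM. Tnfrsf1b, the second TNF receptor gene, was at 89.5 ± 24.9 CPM and 78.0 ± 6.98 CPM. Among the ligands, Cd48, the partner of CD2 family receptors, was at 16.3 ± 7.82 CPM and 10.9 ± 3.57 CPM, Tnfsf14, the ligand gene of the receptor Tnfrsf14 encodes, at 0.73 ± 0.41 CPM and 0.42 ± 0.23 CPM, and Icosl, the ICOS ligand gene, at 9.74 ± 2.77 CPM and 7.84 ± 1.31 CPM. Without control 1, 4 of 7 receptors were below 0 with a median of -0.06, and 6 of 6 ligands with a median of -0.30. The means of control 2 to control 5 were 0.65 CPM for Cd2, 0.76 CPM for Cd27 and 80.95 CPM for Tnfrsf1b. For the ligands these means were 12.85 CPM (Cd48), 0.61 CPM (Tnfsf14) and 9.40 CPM (Icosl).

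The adenosine pathway had 2 of 10 genes above 0 and 8 below, with a median of -0.06. Dpp4, encoding the peptidase CD26, was at 20.9 ± 4.26 CPM in control (SD, n = 5) and 16.7 ± 2.09 CPM in induced tumours (SD, n = 7, unadjusted p = 0.0287, adjusted p = 0.99989, edgeR). Ada, encoding adenosine deaminase, was at 8.48 ± 0.77 CPM and 7.64 ± 0.98 CPM, and Enpp1, a nucleotide pyrophosphatase gene, at 1.61 ± 1.599 CPM and 1.03 ± 1.36 CPM. The means of control 2 to control 5 were 19.1 CPM for Dpp4, 8.36 CPM for Ada and 0.91 CPM for Enpp1. Without control 1, 4 of the 10 adenosine genes were above 0 and 6 below, with a median of -0.0187. Genes of interferon gamma signalling and PD-L1 control had 4 of 16 above 0 and 12 below, with a median of -0.08. In that list Ifngr1, a chain of the interferon gamma receptor, was at 37.9 ± 6.44 CPM and 33.2 ± 6.76 CPM, and Nfkb1, a subunit of NF-kappa-B, at 110.3 ± 22.5 CPM and 98.0 ± 12.2 CPM. Myc, a transcription factor gene, was at 525 ± 88.5 CPM and 581 ± 85.1 CPM, with a log2 fold change of 0.15 (SE 0.14, unadjusted p = 0.306, edgeR). Without control 1, 10 of these 16 were above 0 and 6 below. No gene of either list passed the test.

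Signalling genes downstream of the receptors had 1 of 10 above 0 and 9 below, with a median of -0.15. Ptpn6, encoding the phosphatase SHP-1 that inhibitory receptors recruit, was at 42.8 ± 29.98 CPM in control (SD, n = 5) and 22.8 ± 9.03 CPM in induced tumours (SD, n = 7, unadjusted p = 0.0265, adjusted p = 0.99989, edgeR). Zap70, a kinase of the T cell receptor, was at 1.41 ± 1.58 CPM and 0.68 ± 0.35 CPM, and Csk, a kinase that restrains Src family kinases, at 82.5 ± 11.8 CPM and 74.1 ± 6.81 CPM. Regulators of effector and exhausted T cells had 4 of 15 above 0 and 11 below, with a median of -0.29. Irf4, a transcription factor of activated lymphocytes, was at 1.30 ± 1.33 CPM and 0.45 ± 0.29 CPM, and Nr4a3, an orphan nuclear receptor induced by T cell receptor signals, at 2.40 ± 2.63 CPM and 1.18 ± 0.40 CPM. Nr4a1, of the same receptor family, was at 17.3 ± 1.59 CPM and 14.97 ± 1.52 CPM. No gene of either list passed the test. Control 1 was the highest tumour for 9 of the 10 signalling genes and 9 of the 15 regulators. Without it, 5 of 10 signalling genes were below 0, with a median of -0.000812, and 9 of 15 regulators, with a median of -0.05. The means of control 2 to control 5 were 29.6 CPM for Ptpn6, 0.71 CPM for Zap70 and 78.3 CPM for Csk. For the regulators these means were 0.73 CPM (Irf4), 1.24 CPM (Nr4a3) and 16.7 CPM (Nr4a1).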

How the data were processed

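Bulk RNA-seq of 12 tumours was analysed from 1 deposited table, in which the authors gave raw counts per Ensembl gene, per the file headers. The authors also deposited rlog values on the log2 scale, which were not used, and a comparison of their own, as log2 fold changes, linear signed fold changes (not used) and p-values, its test not given in the sources used here. Per the submitters' processing notes the build was GRCm38 (mm10). Aligner, counter and strand setting were not given in the sources used here. Per the labels' protocols, libraries were made with a SMARTER mRNA-seq kit. The labels' growth text describes another cell line, so groups came from the titles. Nothing says how tumours map to separate litters or cages, so p-values measure the spread between these tumours.

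Counts were fitted with edgeR 4.0.16 in R 4.3.3 (filterByExpr with its minimum count of 10, TMM, robust quasi-likelihood F test, two-sided, Benjamini-Hochberg over all tested genes, threshold 0.05). The code was checked on simulated counts with a single dispersion for all genes and no tumour set apart. That check does not cover the spread seen in these tumours. CPM used TMM factors, and log2 CPM a prior count of 2. Positions and exon lengths came from GENCODE M21. The members and gene lists were chosen with earlier results of these data known. Named genes are the members, up to 3 genes of each list with the smallest p, and the nearest profiles. Alternatives were other size factors, filters, DESeq2 1.42.0, limma-voom (limma 3.58.1), a replicate block and the removal of libraries, where list counts without libraries were added after the data were seen.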

Additional observations from a re-analysis of the deposited data

Results flagged for a closer look

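Control 1 lay far from the other 4 control tumours for 7 of the 10 checkpoint genes, by the gap to the nearest other control over the range of the group. Its levels were 3.68 CPM for Pdcd1lg2, 6.38 CPM for Pdcd1, 6.27 CPM for Ctla4, 15.5 CPM for Havcr2, 5.89 CPM for Cd80, 21.1 CPM for Cd86 and 46.4 CPM for Entpd1. The gap took 0.766 (Ctla4) to 0.905 (Pdcd1) of the range, where 0.71 is the critical value for 5 samples. In normally distributed values such a gap arises in about 1 in 20 groups. The values here are CPM without a log and the genes share the same tumours, so that rate does not carry over to them. Of all genes tested, 10.4% had such a gap in the control group. Among the induced tumours, induced 6 stood apart for Ctla4 at 1.91 CPM, with a gap of 0.702 of the range against a critical value of 0.568. The T cell markers of induced 6 summed to 13.5 CPM, the highest of the induced tumours. For Cd274, Lag3 and Tigit no tumour was that far from its group.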

How the results depend on the processing

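In each of 23 alternative fits, 0 genes had an adjusted p under 0.05, and 108 to 996 genes had an unadjusted p under 0.05. Pdcd1 and Lag3 kept a log2 fold change below 0 in every fit that tested them, with leave-one-out ranges of -2.33 to -0.33 and -0.46 to -0.20. The other 7 genes changed sign. With 1 tumour left out, they ranged from -0.53 to 0.0687 (Cd274), -0.79 to 0.64 (Pdcd1lg2), -0.49 to 0.26 (Havcr2), -0.77 to 0.0589 (Cd80), -0.57 to 0.34 (Cd86) and -0.69 to 0.27 (Entpd1), above 0 only where control 1 was left out, and from -0.41 to -0.03 for Tigit. Without control 1 and control 2 they were 0.26 (Cd274), 0.45 (Pdcd1lg2), 0.37 (Havcr2), 0.11 (Tigit), 0.12 (Cd80), 0.30 (Cd86) and 0.48 (Entpd1). Without induced 3 and induced 4 as well they were 0.24, 0.61, 0.0089, 0.0527, 0.0733, 0.34 and 0.19 in that order. In limma-voom, which gives tumours that vary more a lower weight, they were 0.11 (Cd274), 0.59 (Pdcd1lg2), 0.0237 (Havcr2), 0.22 (Cd86) and 0.0129 (Entpd1). Tigit (-0.0228) and Cd80 (-0.232) stayed below 0 there. With the replicate block only Havcr2 (0.0284) and Entpd1 (0.0834) were above 0. The others of these genes ran from -0.406 (Cd80) to -0.0659 (Cd86), no call changed and Pdcd1 was at -1.53. Deviations of same-numbered tumours from their group means correlated at -0.53 to 0.21, and no control tumour was most like the induced tumour of its number. Nothing says whether a number stands for a shared litter or cage, and correlations over all genes cannot decide it.

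Of the 176 alternatives for levels relative to markers, 1 had an exact permutation p under 0.05 (Entpd1, without induced 4). Signs turned for Cd80, at -0.0154 with a prior count of 0.5, -0.12 with the whole marker list, -0.20 without control 1 and control 2 and -0.18 to 0.19 with 1 tumour left out, for Lag3 at -0.22 without the 4 tumours that stood apart, and for Pdcd1 with 1 tumour left out (-0.49 to 0.34). Other differences kept their sign with 1 tumour left out but ranged widely, from 0.0897 to 1.19 (Lag3), 0.25 to 1.22 (Tigit), 0.36 to 1.25 (Havcr2) and 0.48 to 1.38 (Ctla4) relative to T cell markers, and from 0.10 to 0.46 (Cd274), 0.20 to 0.74 (Pdcd1lg2), 0.12 to 0.49 (Cd86), 0.15 to 0.45 (Havcr2) and 0.21 to 0.37 (Entpd1) relative to macrophage markers. The cause was not tested. The smallest exact p that 12 tumours allow is 0.00126. Depth limits Ctla4, Pdcd1 and Pdcd1lg2, which had 37 reads or fewer in every tumour other than control 1.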

Other observations

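Partner genes of the checkpoint receptors, named for their roles and not by a rule fixed earlier, were present at very different levels. Pvr, the main ligand gene of TIGIT, was at 121.9 ± 10.1 CPM in control (SD, n = 5) and 128 ± 18.3 CPM in induced tumours (SD, n = 7), with a log2 fold change of 0.07 (SE 0.11). Lgals9, a proposed ligand gene of TIM-3, was at 118 ± 31.7 CPM and 98.6 ± 27.3 CPM. Nt5e, encoding CD73, which makes adenosine from the AMP that CD39 releases, was at 110.6 ± 15.9 CPM and 125.3 ± 50.6 CPM, with the highest value, 226 CPM, in induced 7, the tumour with the lowest Entpd1. Of the adenosine receptors, Adora2b was at 22.0 ± 2.95 CPM and 21.5 ± 4.51 CPM, and Adora2a, the main receptor of T cells, at 1.27 CPM and 0.96 CPM. Control 1 had 3.33 CPM of Adora2a, and control 2 to control 5 had a mean of 0.76 CPM. Cd28, the costimulatory counterpart of Ctla4, was at 1.03 ± 1.49 CPM and 0.61 ± 0.35 CPM, with 3.68 CPM in control 1 and at most 1.03 CPM in the induced tumours. None of these genes passed the edgeR test.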
